A study of Mus musculus with 13 samples.

Results

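Heat shock proteins and chaperones were taken as the genes of the deposited expression table whose symbol began with Hspa, Hspb, Hspd, Hspe, Hsph, Hsp90 or Dnaj, or with Cct followed by a number. The rule found 78 genes among the 15176 of the table, and 65 of them passed the filter for testing, at least 1 RPKM (reads per kilobase, scaled to the reads of the library) in at least 2 libraries. The study asked how mouse somatic cells become pluripotent under small-molecule compounds, and sequenced RNA from 13 libraries. They comprised 3 of mouse embryonic fibroblasts (MEF), 2 of Oct4-GFP-negative cells (GFP-), 1 of Oct4-GFP-positive clusters, 1 of Oct4-GFP-positive colonies, 4 of embryonic stem cells (ESC) and 2 of chemically induced pluripotent lines (CiPSC lines 6 and 11). Oct4-GFP is a fluorescent reporter of the pluripotency gene Pou5f1.

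MEF came from C57xICR embryos, were untreated and grew in DMEM with serum. GFP- cells carried the treatment label VC6TF, clusters and colonies the label VC6TF+Z, and the CiPSC lines the label VC6TFMB+Z, all in C57xICR cells. ESC were the untreated R1 line of strain 129, so ESC and MEF differed in strain as well as in cell type. ESC and CiPSC were kept on feeder layers of MEF treated with mitomycin C, and GFP- cells, clusters and colonies were picked for RNA isolation. Nothing stated whether libraries of a group came from separate cultures, so p-values measure the spread between these libraries, which may be technical. In 10 libraries the values were taken as per kilobase of the whole gene span, and in the other 3 (both CiPSC lines and ESC replicate 4) they were taken as per kilobase of exon. The filter for testing counted libraries of both scales. Dnajc6, Dnajc17, Dnajc24, Dnajc27 and Hspb11 passed it through exonic values alone, and they stay in the counts of members tested. Dnajc6, for example, was at most 0.335 RPKM in the gene-span libraries and 4.26 to 5.57 in the exonic ones. Hspa4l passed the filter only through GFP- cells and the clusters, and Dnajb4 only through MEF and GFP- cells, where each was high. The group differences below keep the 2 scales apart, and only an alternative fit without a length-scale term mixes them. The spread behind the p-values was pooled over libraries of both scales, so leaving out a CiPSC line can change a call between gene-span groups. Depth in the 10 gene-span libraries, estimated from the smallest steps between values, was 8.91 to 17.7 M reads, and in the other 3 it is unknown.

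Labels were checked against markers. Pou5f1 was 86.1 to 152 RPKM in ESC replicates 1 to 3 and 124 in the colonies, but 0.260 in the clusters and 0.191 and 0.429 in GFP- cells. The library labelled as GFP-positive clusters thus held Pou5f1 at the level of the GFP- libraries, and all 5 pluripotency markers together summed to 0.830 RPKM there against 644 in the colonies and 745 to 913 in ESC. Nanog was 0.0418 RPKM in the colonies against 51.7 to 55.4 in ESC replicates 1 to 3. The 5 fibroblast markers summed to 613 to 2568 RPKM in MEF, 163 to 188 in GFP- cells, 108 in the clusters, 41.8 in the colonies and 10.3 to 23.0 in ESC. MEF replicate 3 stood apart from the other MEF libraries: the 5 macrophage and blood markers in the table, of 7 listed, reached 200 RPKM there and 18.7 in the lowest MEF library, and their part in the values of that library was not tested. In these bulk libraries, fewer cells of a type and less RNA per cell cannot be told apart.

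Chaperones bind unfolded or partly folded proteins and release them in cycles driven by ATP. Hsp70 proteins work with J-domain partners (the Dnaj genes) and with nucleotide exchange factors, Hsp90 finishes the folding of signalling proteins, and the CCT ring folds actin and tubulin in a closed chamber. Small heat shock proteins hold unfolded clients without ATP. Heat shock factor drives the inducible cytosolic members through heat shock elements, which are inverted repeats of nGAAn. Stress in the endoplasmic reticulum (ER) instead drives Hspa5 and its partners through the ER stress response element. Pluripotent stem cells are known for high levels of several cytosolic chaperones.

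Promoter sequences, the 250 bases before the start site, were taken from RefSeq on build GRCm38.p6, where 63 of the 78 members matched with 82 start sites. The following are shown because values of their genes are given below and their windows hold a heat shock element (Hspa1a, Hspb1, Hspd1 and Hspe1) or an ER stress response element (Hspa5 and Hsp90b1). Of these genes, Hspa1a, Hspd1 and Hspe1 were called in no comparison of the main fit. Each is given from 5′ to 3′ on the strand of the gene, and capitals mark the matched element.
Hspa1a: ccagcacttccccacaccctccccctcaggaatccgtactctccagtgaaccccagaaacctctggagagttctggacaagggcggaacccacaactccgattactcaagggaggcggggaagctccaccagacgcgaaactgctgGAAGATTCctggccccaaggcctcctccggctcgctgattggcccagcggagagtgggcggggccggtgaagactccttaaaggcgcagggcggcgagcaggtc
Hspb1: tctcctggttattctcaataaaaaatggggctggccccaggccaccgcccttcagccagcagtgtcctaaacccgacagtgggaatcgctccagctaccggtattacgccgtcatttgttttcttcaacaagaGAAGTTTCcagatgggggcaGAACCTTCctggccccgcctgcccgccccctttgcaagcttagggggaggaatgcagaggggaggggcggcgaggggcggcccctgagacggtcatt
Hspa5: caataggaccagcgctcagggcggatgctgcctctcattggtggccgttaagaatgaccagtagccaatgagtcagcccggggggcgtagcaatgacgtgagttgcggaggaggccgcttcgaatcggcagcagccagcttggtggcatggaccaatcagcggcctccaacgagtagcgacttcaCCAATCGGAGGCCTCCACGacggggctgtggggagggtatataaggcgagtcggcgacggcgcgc
Hsp90b1: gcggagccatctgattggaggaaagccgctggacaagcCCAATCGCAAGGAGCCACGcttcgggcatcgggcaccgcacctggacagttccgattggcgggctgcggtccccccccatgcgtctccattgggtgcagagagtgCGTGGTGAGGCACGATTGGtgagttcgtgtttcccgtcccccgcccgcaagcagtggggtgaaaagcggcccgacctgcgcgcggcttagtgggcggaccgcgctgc
Hspd1 and Hspe1: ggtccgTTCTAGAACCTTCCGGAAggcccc

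The windows lie at chr17:34972157-34972406 (minus strand) for Hspa1a, chr5:135887669-135887918 (plus strand) for Hspb1, chr2:34771840-34772089 (plus strand) for Hspa5 and chr10:86705445-86705694 (minus strand) for Hsp90b1. The last line is the 30-base stretch at chr1:55088053-55088082, printed on the plus strand, which lies in the windows of both Hspd1 and Hspe1, a gene pair transcribed away from each other. The element was searched on both strands in 3 forms. The two-unit heat shock element, GAANNTTC or TTCNNGAA, was in 20.7% of the members' windows and in 12.8% of the 32851 windows of that length. The three-unit form, either two-unit form continued by NN and the next unit (GAA or TTC), which therefore overlaps it, was in 4.88% and 0.466%, and the members that held it were Dnajb6, Hspd1 and Hspe1. The ER stress response element, CCAAT and CCACG with 9 bases of any kind between them, was in 3.66% and 0.113%, and the members that held it were Hspa5, Hsp90b1 and Dnajc3. The Hspa5 match began at position -65 from the start site, and Hsp90b1 held 1 match in each orientation. Hsp90aa1, Hsp90ab1, Dnajb1 and Hspb8 were not among the members with a match, and some members had no window. A match describes letters in this window and is not a measured binding site. The windows of Hspa1a and Hspa1b differed at 3 of 250 positions. These windows lie before the start site, and the transcripts of Hspa1a and Hspa1b were not compared. Whether the counting split reads between these near-identical copies is not known, so the values of both are uncertain.

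Between ESC and MEF, both cytosolic Hsp90 genes, the small heat shock protein Hspb1 and 5 subunits of the CCT ring rose in ESC, and the main Hsp70 and Hsp90 of the ER fell. A gene was called changed at a limma adjusted p under 0.05 with a log2 change of at least 1, where a log2 change is that of RPKM + 1. Of the 65 members tested, 13 rose in ESC, beside a background of 7.95% of all genes tested, and 5 fell, beside 7.97%. Members called in either direction were 27.7% of those tested, beside 15.9% of all genes tested. With median-of-ratios scaling 7 rose and 4 fell, and with only the libraries that carry unmeasured genes as 0, 5 rose and 5 fell. Ranges that did not overlap gave 27 members above MEF (41.5%, background 26.8%) and 11 below (16.9%, background 16.7%). The median log2 change was 0.29 over the members and 0.14 over all genes tested. By role it was 1.05 for the CCT subunits (5 of 7 rose), 0.89 for constitutive cytosolic members (4 of 12 rose), 0.48 for mitochondrial members (1 of 9 rose), -0.01 for stress-induced members (2 of 9 rose and 1 fell) and -0.57 for ER members (3 of 10 fell). The role medians of CCT, constitutive, mitochondrial and ER members kept their sign under the scalings tried, and that of stress-induced members was -0.11 to -0.01. With median-of-ratios scaling the calls of Dnajb4, Dnajb6, Dnajc21 and Hspbap1 ended, with only the libraries that carry unmeasured genes as 0 those of Dnajb6, Dnajc19, Hspa4, Hspb6 and Hspbap1, and with the gene-span libraries alone those of Dnajb4 and Hsp90b1, besides the CCT subunits named below.

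**Figure D1:**
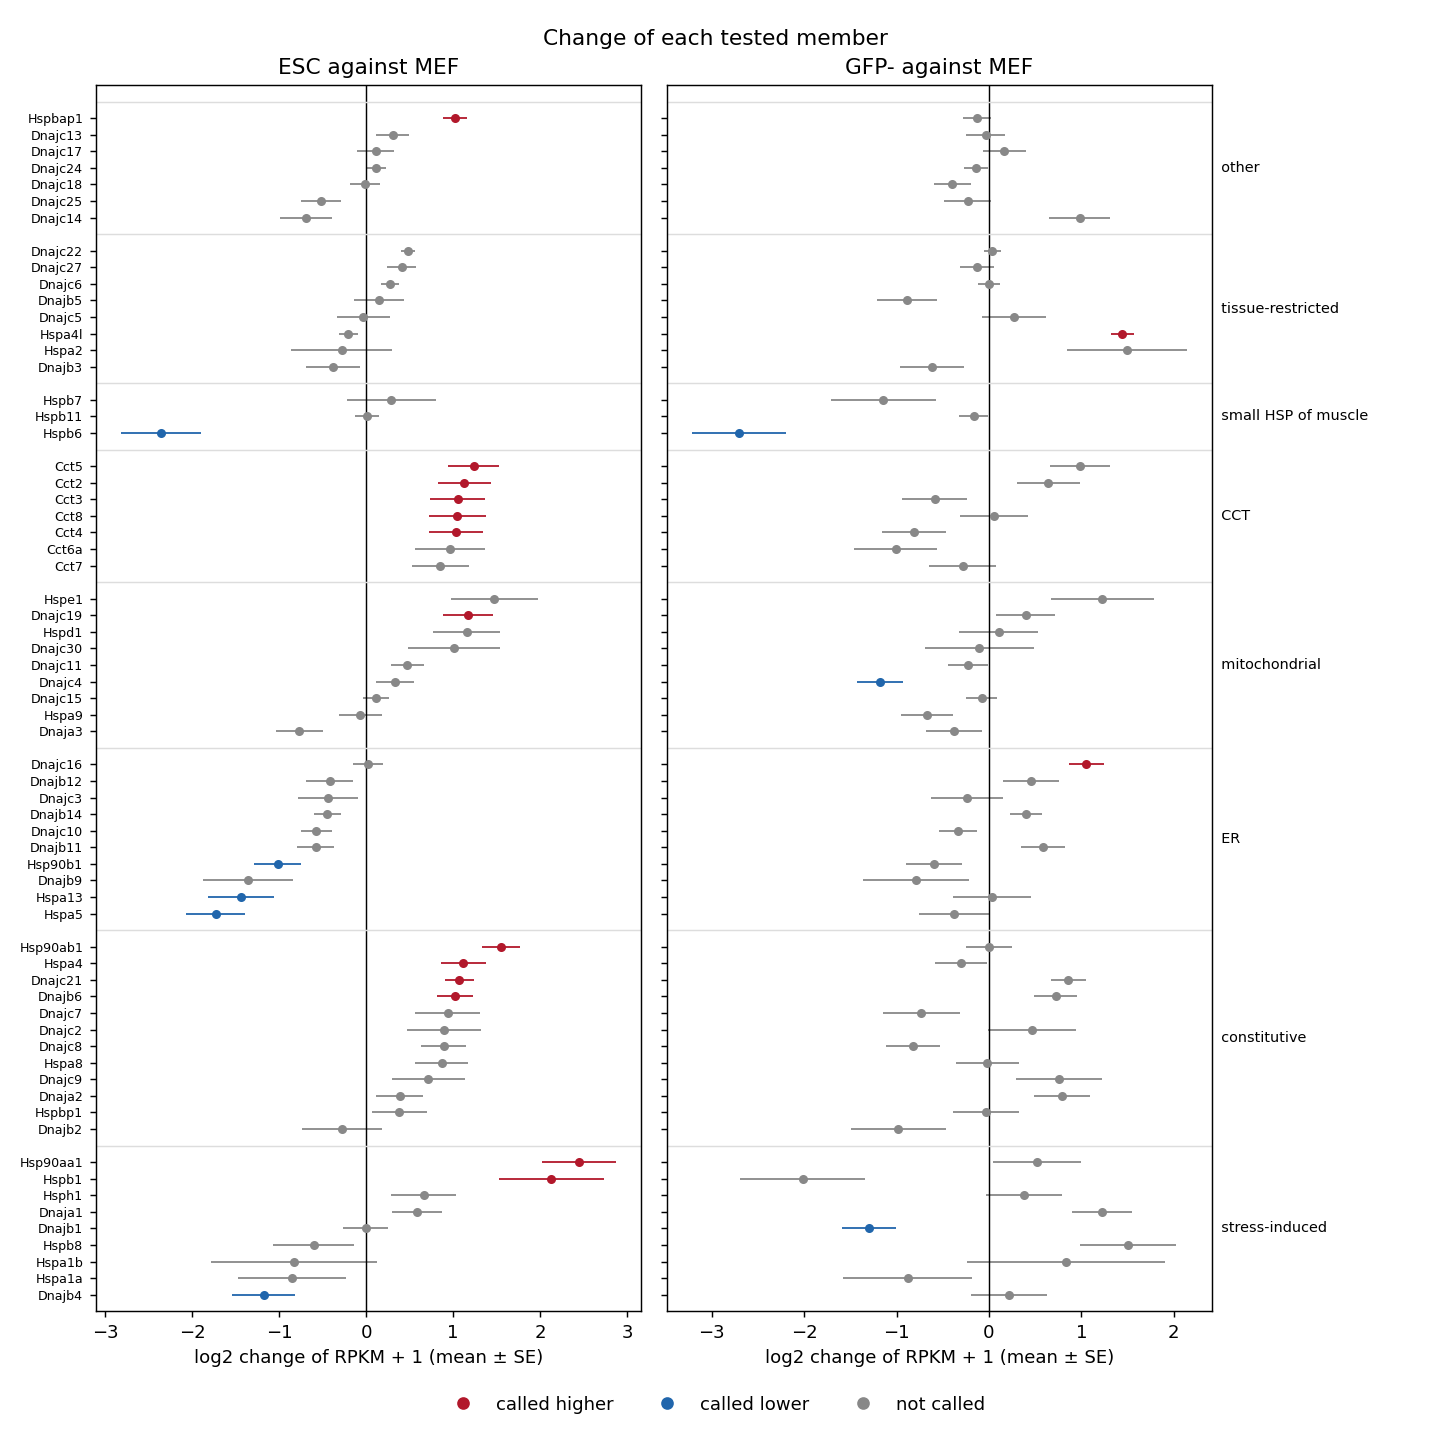
Log2 change of RPKM + 1 (points, with SE bars) for each of the 65 tested members in ESC against MEF (left) and in GFP- cells against MEF (right), grouped by role, with red for members called higher, blue for called lower and grey for not called. In ESC against MEF the 7 CCT subunits lie right of 0 and 13 members are red, whereas in GFP- cells against MEF 5 members are coloured.

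Among stress-induced cytosolic members, the inducible Hsp90 and the small heat shock protein Hspb1 rose in ESC while the inducible Hsp70 genes Hspa1a and Hspa1b were below 3 RPKM in every gene-span library except MEF replicate 3 and, for Hspa1b, GFP- replicate 1. Hsp90aa1, the inducible Hsp90, was 40.9, 43.6 and 13.5 RPKM in MEF replicates 1 to 3, 46.1 and 38.5 in GFP- cells, 42.9 in the clusters, 44.7 in the colonies and 164, 156 and 170 in ESC replicates 1 to 3. All ESC libraries lay above every other gene-span library, and the level in the colonies was that of MEF replicates 1 and 2. The ESC mean was 163 ± 6.96 RPKM (SD, n = 3) against 32.7 ± 16.6 in MEF (n = 3), 5.0 times higher, with a log2 change of 2.45 (SE 0.42, limma adjusted p = 0.00427). MEF replicate 3 was the low library, and the difference of group means was 1.90 on the log2 scale from replicates 1 and 2 of both groups and 3.56 from replicate 3 of both.

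Hspb1, a small heat shock protein that holds unfolded clients and binds actin, was 10.7, 9.66 and 21.8 RPKM in MEF, 1.48 and 3.94 in GFP- cells, 1.02 in the clusters, 35.1 in the colonies and 28.8, 51.4 and 152 in ESC replicates 1 to 3. GFP- cells and the clusters lay below every MEF library, and the colonies lay inside the ESC range. Against ESC replicate 3, the only ESC library with the same value for unmeasured genes, the colonies had a log2 difference of -2.09. Hspb1 rose in ESC against MEF by a log2 change of 2.13 (SE 0.60, limma adjusted p = 0.0336) and against GFP- cells by 4.15 (SE 0.67, limma adjusted p = 0.00264). The first of these calls ended without MEF replicate 1 or 2, ESC replicate 2 or 3, or either CiPSC line, and adjusted p was then at most 0.106. The second held without each library in turn. Without ESC replicate 3 the difference of GFP- cells from MEF, a log2 change of -2.02, reached an adjusted p of 0.0400, where the full fit gave 0.102.

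Hspa1a, an inducible Hsp70, was 0.634, 0.674 and 7.25 RPKM in MEF, 0.247 and 0.893 in GFP- cells, 0.383 in the clusters, 1.80 in the colonies and 0.0257, 0.367 and 1.74 in ESC replicates 1 to 3. Its near-identical copy Hspa1b was 1.39, 0.528 and 10.2 in MEF, 17.9 and 0.995 in GFP- cells, 0.200 in the clusters, 2.14 in the colonies and 0.0336, 0.886 and 2.72 in ESC. Both were highest among MEF in replicate 3, Hspa1b was high in 1 of the GFP- libraries, and neither was called in any comparison. Hsph1, an exchange factor for Hsp70, was 2.17 to 4.04 RPKM in MEF and 4.89 to 6.53 in ESC, ranges that did not overlap, and it was not called either (limma adjusted p = 0.232). Immediate early genes, which respond to handling, summed over 8 genes to 207 to 396 RPKM in MEF, 149 to 201 in GFP- cells, 96.9 in the clusters, 96.2 in the colonies and 34.5 to 72.5 in ESC. Their part in the levels of inducible chaperones was not tested.

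Dnajb1, the J-domain partner of inducible Hsp70, was 14, 17.6 and 11.9 RPKM in MEF and 16.1, 16.1 and 11.2 in ESC, and the groups overlapped. GFP- cells held 4.51 and 6.08, below every MEF and ESC library, and the clusters held 42.3, the highest of all. It fell in GFP- cells against MEF (log2 change -1.30, SE 0.29, limma adjusted p = 0.0293) and was higher in ESC than in GFP- cells by 1.29 (SE 0.29, limma adjusted p = 0.0115). The first call ended without GFP- replicate 1, MEF replicate 1 or 2, or either CiPSC line (adjusted p at most 0.118), and the second without GFP- replicate 1 (adjusted p = 0.0551). Dnajb4, a heat-inducible J-domain protein, fell in ESC against MEF, from 3.48, 3.48 and 0.661 RPKM to 0.800, 0.312 and 0.220 (log2 change -1.18, SE 0.37, limma adjusted p = 0.0470). MEF replicate 3 overlapped ESC, and the call ended when any 1 of 9 libraries was left out (adjusted p at most 0.145): each CiPSC line, ESC replicates 1 to 3, both GFP- replicates, and MEF replicates 1 and 2. The Dnajb4 call also ended with no filter on low values. Hspb8, a small heat shock protein that works with Bag3, was 11.2 and 7.87 RPKM in GFP- cells against 1.05, 0.402 and 3.85 in ESC, with MEF at 1.40 to 3.79. Its level was lower in ESC than in GFP- cells (log2 change -2.11, SE 0.52, limma adjusted p = 0.0161; 0.0821 without GFP- replicate 1).

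**Figure D2:**
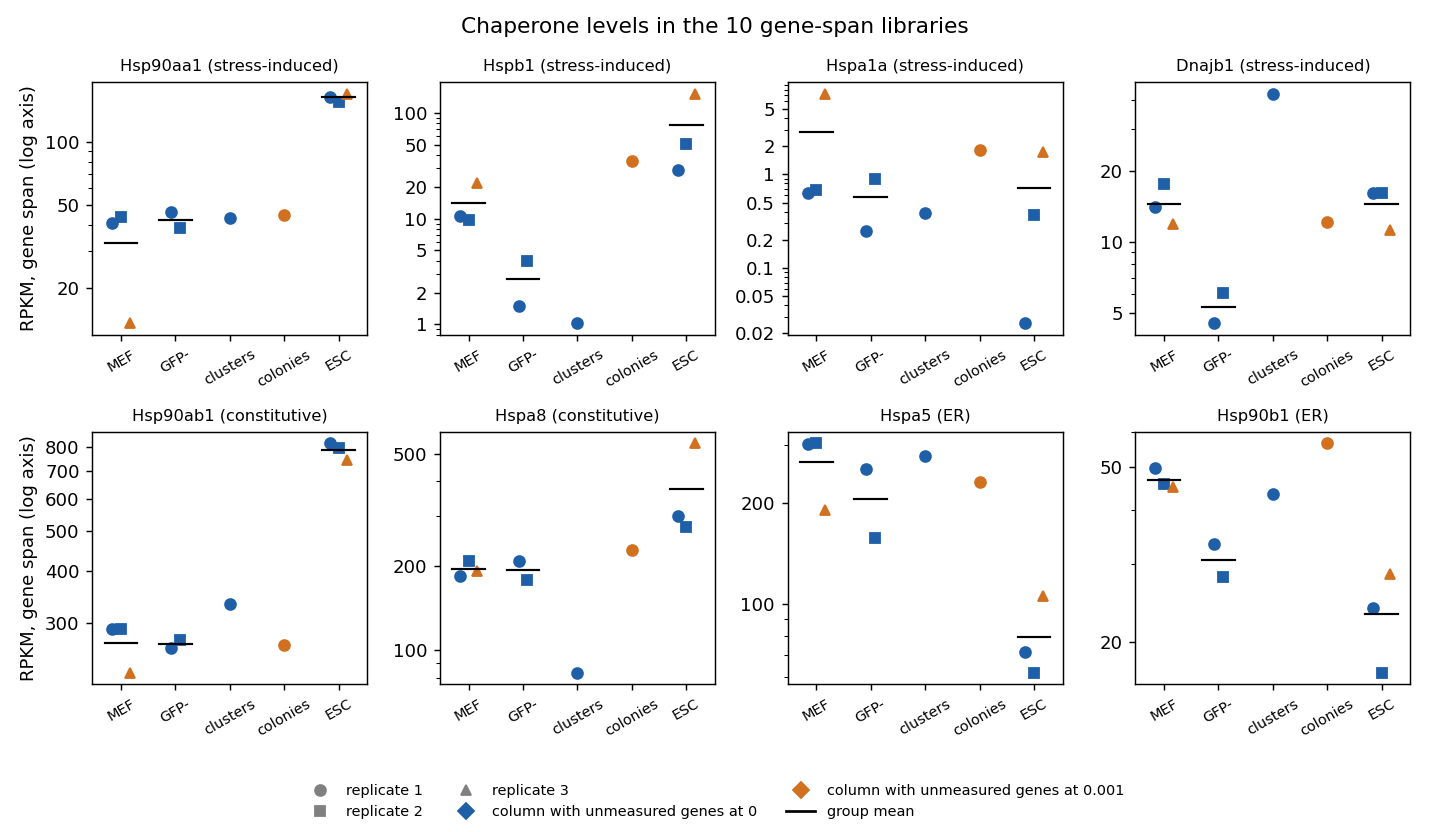
RPKM per gene span (log axis) of 4 stress-induced, 2 constitutive and 2 ER chaperones in the 10 gene-span libraries, with 1 point per library, shape for the replicate, colour for the value that stands for unmeasured genes in the column, and a line for the group mean. Hsp90aa1 and Hsp90ab1 lie high in the 3 ESC libraries and near MEF in the clusters and colonies, and Hspa5 lies low in ESC alone.

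Of the 12 constitutive cytosolic members, 4 rose in ESC against MEF and 0 fell. Hsp90ab1, the constitutive Hsp90, was 290, 289 and 227 RPKM in MEF, 261 and 273 in GFP- cells, 333 in the clusters, 265 in the colonies and 818, 794 and 744 in ESC replicates 1 to 3. The ESC libraries lay far above all others, and the colonies lay inside the MEF range. The ESC mean of 786 ± 38.2 RPKM stood against 269 ± 36.0 for MEF (SD, n = 3 for both), a log2 change of 1.55 (SE 0.22, limma adjusted p = 0.00172), and the rise held under all alternatives run. Hspa8, the constitutive Hsp70, was 185, 207 and 192 in MEF and 301, 275 and 546 in ESC, so the ranges did not overlap, but its log2 change of 0.87 (SE 0.30) missed the call (limma adjusted p = 0.0681). The clusters held the lowest Hspa8 value, 83.3 RPKM.

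Hspa4, an exchange factor of the Hsp110 family, rose from 5.30, 5.56 and 3.75 RPKM in MEF to 11.6, 9.97 and 13.6 in ESC (log2 change 1.12, SE 0.25, limma adjusted p = 0.0142). Without MEF replicate 3 its log2 change was 0.97, below the size needed for a call. Dnajb6, a J-domain protein that suppresses aggregation, rose from 0.769 to 1.13 RPKM in MEF to 2.85 to 3.08 in ESC (log2 change 1.02, SE 0.21, limma adjusted p = 0.00862). Dnajc21, a J-domain protein of ribosome assembly, rose from 0.564 to 0.717 RPKM to 2.28 to 2.53 (log2 change 1.07, SE 0.17, limma adjusted p = 0.00268). For Dnajb6 and Dnajc21 the MEF and ESC ranges did not overlap, and GFP- cells held 1.66 to 2.83 and 1.72 to 2.19, between them. The Dnajb6 call ended without MEF replicate 3 (log2 change 0.96) or ESC replicate 3. Among the members on no role list, Hspbap1, which binds Hspb1, was 0.0973 to 0.125 RPKM in MEF and 1.03 to 1.58 in ESC, and rose by a log2 change of 1.03 (SE 0.14, limma adjusted p = 0.00135; 0.93 without ESC replicate 3).

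All 7 tested CCT subunits had a positive log2 change in ESC against MEF, and 5 of them rose. Cct2 was 9.89, 12.2 and 12.8 RPKM in MEF, 20.2 and 17.1 in GFP- cells, 12.6 in the clusters, 17.2 in the colonies and 23.2, 20.1 and 39.8 in ESC. Cct5 was 26.0, 21.8 and 15.2 in MEF, 36.8 and 46.9 in GFP- cells, 49.0 in the clusters, 25.9 in the colonies and 52.3, 56.8 and 41.3 in ESC. Both subunits were above every MEF library in each GFP- library and each ESC library. The log2 changes of the 5 called subunits lay between 1.03 for Cct4 (SE 0.31, limma adjusted p = 0.0412) and 1.24 for Cct5 (SE 0.29, limma adjusted p = 0.0159), with 1.13 for Cct2, 1.05 for Cct3 and 1.05 for Cct8. The uncalled subunits were Cct6a, at 2.60 to 3.06 RPKM in MEF and 3.70 to 13.6 in ESC, and Cct7, at 8.44 to 12.2 and 15.6 to 28.5.

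ESC replicate 3 held the highest value of the 3 gene-span ESC libraries for every subunit except Cct5. Leaving out single libraries ended the calls of Cct3 and Cct8 for each of ESC replicates 1 to 3, MEF replicates 1 to 3 and both CiPSC lines (adjusted p at most 0.0918 and 0.145). It ended that of Cct4 for the same libraries except ESC replicate 2 (at most 0.114), that of Cct2 for ESC replicates 1 and 3, MEF replicates 1 and 2 and both CiPSC lines (at most 0.0973), and that of Cct5 for ESC replicates 1 and 2 (at most 0.0537). The calls of Cct3, Cct4 and Cct8 also ended with median-of-ratios scaling, and those of Cct2, Cct3, Cct4 and Cct8 with the gene-span libraries alone, with only the libraries that carry unmeasured genes as 0, and without a length-scale term. The columns also split by the value written for unmeasured genes, 0 in replicates 1 and 2 of both groups and 0.001 in replicate 3. Within each of these sets every called subunit was higher in ESC than in MEF, by 0.92 and 1.56 for Cct2, 0.78 and 1.59 for Cct3, 0.81 and 1.47 for Cct4, 1.16 and 1.38 for Cct5 and 0.73 and 1.70 for Cct8 on the log2 scale. Tcp1, which encodes the subunit CCT1 and lies outside the symbol rule, was 51.6, 54.7 and 19.9 RPKM in MEF, 622 and 618 in GFP- cells, 760 in the clusters, 27.8 in the colonies and 595, 526 and 57.7 in ESC replicates 1 to 3. ESC replicate 3 lay near MEF and the other 2 near GFP- cells, a split that none of the 7 tested subunits showed. Cct6b was at or below 0.0420 RPKM in each gene-span library and was not tested.

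**Figure D3:**
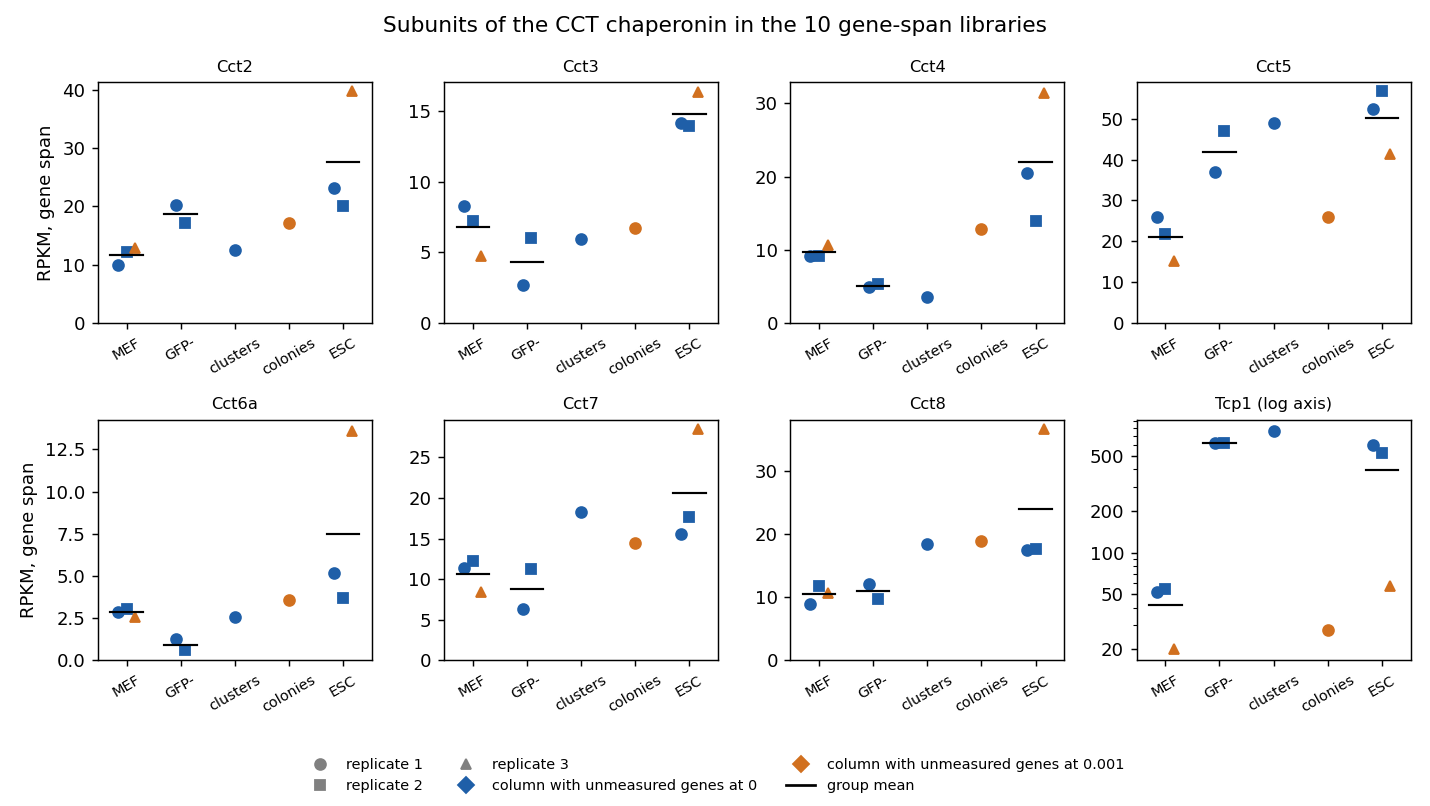
RPKM per gene span of the 7 tested CCT subunits (axes from 0) and of Tcp1 (log axis) in the 10 gene-span libraries, with 1 point per library and a line for the group mean. The ESC points lie above every MEF point for the 7 subunits, and Tcp1 lies at 526 to 622 RPKM in both GFP- libraries and in ESC replicates 1 and 2 but at 57.7 in ESC replicate 3.

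In the ER, the Hsp70 and Hsp90 of the lumen fell in ESC against MEF. Hspa5 (BiP), which binds nascent chains and holds the stress sensors inactive, was 302, 303 and 191 RPKM in MEF, 254 and 157 in GFP- cells, 278 in the clusters, 231 in the colonies and 71.6, 62.0 and 105 in ESC replicates 1 to 3. Every ESC library lay below every other gene-span library, and the colonies stayed at the MEF level. The ESC mean of 79.6 ± 22.7 RPKM stood against 265 ± 64.6 for MEF (SD, n = 3 for both), a log2 change of -1.73 (SE 0.34, limma adjusted p = 0.00718), and this call held under all alternatives run. Hsp90b1 (Grp94), the ER Hsp90, fell from 49.7, 45.8 and 45.1 RPKM to 23.9, 17.0 and 28.5 (log2 change -1.02, SE 0.27, limma adjusted p = 0.0259), and the call ended without ESC replicate 1 or 2, MEF replicate 1 or 2, or either CiPSC line (adjusted p at most 0.0842). GFP- cells held 33.4 and 28.1 RPKM of Hsp90b1, below every MEF library and overlapping ESC. Hsp90b1 was not called in ESC against GFP- cells (log2 change -0.42, limma adjusted p = 0.310). Hspa13, an ER-associated Hsp70, fell from 6.60, 8.90 and 2.63 to 1.92, 0.980 and 1.38 (log2 change -1.44, SE 0.38, limma adjusted p = 0.0257), and its call ended without MEF replicate 1 or 2, ESC replicate 2 or 3, or either CiPSC line (at most 0.0843). The colonies held 231 RPKM of Hspa5, 56.7 of Hsp90b1 and 6.54 of Dnajb11, each above all 3 gene-span ESC libraries. Summed fibroblast markers, given above, were also highest in MEF and lowest in ESC, and their part in the fall of ER members was not tested.

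Mitochondrial members showed 1 call. Dnajc19, a part of the motor that imports proteins into the matrix, rose from 1.98, 2.47 and 1.75 RPKM in MEF to 5.74, 5.76 and 6.11 in ESC (log2 change 1.17, SE 0.29, limma adjusted p = 0.0191), and the call ended without ESC replicate 1 or 2 or MEF replicate 1 (adjusted p at most 0.0604). Hspd1 (Hsp60), the chaperonin of the matrix, was 25.9, 28.1 and 10.2 RPKM in MEF, 22.5 and 19.9 in GFP- cells, 6.38 in the clusters, 17.0 in the colonies and 53.0, 42.1 and 40.6 in ESC. Its ESC libraries lay above all MEF libraries, and the log2 change of 1.16 (SE 0.38) missed the call (limma adjusted p = 0.0594). It passed with a term for the column set (limma adjusted p = 0.0148) and also per kilobase of exon. Its partner Hspe1 (Hsp10), which shares the element printed above, was 14.5, 20.9 and 11.2 in MEF, 75.2 and 17.6 in GFP- cells, 61.0 in the clusters, 24.6 in the colonies and 52.7, 38.2 and 41.3 in ESC (log2 change 1.48, SE 0.50, limma adjusted p = 0.0614). It passed the call without either GFP- replicate, with an adjusted p down to 0.00905, and per kilobase of exon (0.0416). The pair did not move together in each library: the clusters were low for Hspd1 and high for Hspe1. Hspb6, a small heat shock protein of muscle, fell in ESC from 9.97, 10.0 and 6.11 RPKM in MEF to 2.79, 0.101 and 0.519 (log2 change -2.36, SE 0.46, limma adjusted p = 0.00723).

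Between GFP- cells and MEF, 2 of the 65 members tested rose (background 3.53%) and 3 fell (background 4.09%). The 5 called members are 7.69% of those tested, beside 7.62% of all genes tested called in either direction. With median-of-ratios scaling the counts were 3 and 2, and the call of Dnajb1 ended. Ranges that did not overlap gave 11 members above MEF (16.9%, background 13.5%) and 16 below (24.6%, background 27.1%). Hspa4l, an Hsp110 relative known from testis and osmotic stress, was 0.229, 0.450 and 0.139 RPKM in MEF and 2.45 in both GFP- libraries, and rose by a log2 change of 1.45 (SE 0.12, limma adjusted p = 0.000295). The clusters held 2.58, beside GFP- cells, and the colonies and ESC at most 0.122. This call held without each library in turn and with no filter on low values. Hspa4l passed the filter only through the GFP- libraries and the clusters, so its selection for testing was not independent of this difference. Dnajc16, a J-domain protein of the ER, was 0.401 to 0.740 RPKM in MEF and 1.76 and 2.71 in GFP- cells and rose by 1.06 (SE 0.19, limma adjusted p = 0.0115), a size that became 0.84 without GFP- replicate 2 and 0.99 without MEF replicate 2.

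Hspb6 and Dnajc4 fell and were near the floor in GFP- cells. Hspb6 was 0.0277 and 1.07 RPKM there, about 1 and 35.9 estimated reads, and fell by 2.70 on the log2 scale (SE 0.51, limma adjusted p = 0.0146; 0.0902 without GFP- replicate 1). Dnajc4, listed with the mitochondrial members, was listed at 0 in GFP- replicate 1 and was 0.336 RPKM in replicate 2, against 1.14 to 2.41 in MEF, and fell by 1.18 (SE 0.25, limma adjusted p = 0.0218). Its call ended without GFP- replicate 1, MEF replicate 1 or 3, or either CiPSC line (adjusted p at most 0.107). Hspb6 and Dnajc4 are thus low against MEF at estimated counts under 40 reads. Dnajb1 was the third member that fell, with values given above.

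Against GFP- cells, ESC showed more calls: 14 of the 65 members tested rose (background 14.3%) and 8 fell (background 8.35%). Members called in either direction were 33.8% of those tested, beside 22.7% of all genes tested. Ranges that did not overlap gave 28 members above (43.1%, background 37.6%) and 12 below (18.5%, background 17.6%). This comparison shares its ESC libraries with ESC against MEF, so the 2 sets of calls are not independent. Cct3, Cct4, Cct6a and Cct7 rose. Cct4 went from 4.88 and 5.26 RPKM to 20.4, 13.9 and 31.5 (log2 change 1.85, SE 0.35, limma adjusted p = 0.00498). Cct6a went from 1.24 and 0.621 to 5.15, 3.70 and 13.6 (1.98, SE 0.45, limma adjusted p = 0.0112; 0.0501 without GFP- replicate 2). Cct7 rose by 1.14, but its call ended without GFP- replicate 1 (log2 change 0.77, adjusted p = 0.21), ESC replicate 2 or 3, MEF replicate 1 or 2, or either CiPSC line. Hsp90ab1 rose by 1.55 and Hsp90aa1 by 1.93 (SE 0.48, limma adjusted p = 0.0161), and the latter call ended without either GFP- replicate (at most 0.0594). Hspa4 rose by 1.42 and Hspbap1 by 1.15, and both calls held without each library in turn.

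Among the J-domain partners, Dnajc7 (a TPR partner of Hsp70 and Hsp90) and Dnajc8 (found with splicing factors) rose. Dnajc8 was 0.794 and 1.48 RPKM in GFP- cells and 5.73, 7.79 and 4.59 in ESC (log2 change 1.71, SE 0.29, limma adjusted p = 0.00321). Dnajc7 was 0.114 and 0.715 in GFP- cells and 2.84, 2.39 and 5.50 in ESC (1.67, SE 0.42, limma adjusted p = 0.0170; 0.0969 without GFP- replicate 1). Dnajc4 and Dnajb5 rose with them, by 1.51 and 1.04, and the call of Dnajb5 ended without GFP- replicate 1 (adjusted p = 0.235), ESC replicate 1 or 2, MEF replicate 2, or either CiPSC line. Lower members included Hspa4l, from 2.45 RPKM in both GFP- libraries to at most 0.122 in ESC (log2 change -1.65, SE 0.12, limma adjusted p = 6.28e-05), and Dnajc14, from 14.3 and 10.8 RPKM to 4.89, 1.84 and 3.50 (-1.67, SE 0.33, limma adjusted p = 0.00652). The limit given above on the selection of Hspa4l by the filter applies here too. Hspa5, Hspa13, Dnajb11 and Dnajc16, listed with the ER, were also lower, by log2 changes of -1.35, -1.47, -1.17 and -1.03, as was Dnajb4 by -1.39. The Hspa5 call ended without GFP- replicate 1, ESC replicate 1 or 2, or either CiPSC line (adjusted p at most 0.143), and that of Hspa13 without GFP- replicate 2, ESC replicate 2 or 3, or either CiPSC line (at most 0.125). That of Dnajb4 ended without either GFP- replicate, ESC replicate 2 or 3, or either CiPSC line (at most 0.101). It also ended with no filter on low values. The size of the Dnajc16 change was -0.82 without GFP- replicate 2 and -0.92 without ESC replicate 2, too small for a call.

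The clusters and colonies are 1 library each, so they carry no replicate check and no test, and members were counted where they differed from a group mean by more than 1 on the log2 scale. These counts are out of the 65 members tested. Against GFP- cells the clusters had 6 members above (background 11.4%) and 13 below (background 13.2%). Dnajb1 lay highest above, at 42.3 RPKM against a mean of 5.29, and Hspd1 was low, at 6.38 against 21.2. Dnajc14 was 1.13 against 12.6, and Dnajb11 0.705 against 6.57. Against MEF the clusters had 8 members above (background 10.8%) and 15 below (background 19.7%), with Hspb8 at 14.8 RPKM against 2.81 and Hspb1 at 1.02 against 14.1. Hspe1 was 61.0 RPKM against 15.5 and Hspb6 0.0343 against 8.69. Relative to MEF this 1 library thus held high Dnajb1, Hspb8 and Hspe1 and low Hspd1, Hspa8, Hspb1 and Hspb6, members picked for their differences. High Hspb8 and low Hspb1 and Hspb6 against every MEF library were also found in both GFP- libraries, so they are not particular to the clusters.

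In the colonies, both cytosolic Hsp90 genes, Hspd1 and Hspa5 had values close to or inside the MEF range, whereas the summed pluripotency markers were 644 RPKM. Against ESC, 6 members were above (background 14.9%) and 7 below (background 9.24%), and with median-of-ratios scaling 4 and 9. Those below were led by Hsp90aa1, at 44.7 RPKM against a mean of 163, Hsp90ab1, at 265 against 786, Hspd1, at 17.0 against 45.3, and Hspa9, the Hsp70 of mitochondria, at 9.60 against 25.9. Those above were led by Hspa5, at 231 against 79.6, Hspb7, at 7.20 against 2.75, and Hsp90b1, at 56.7 against 23.1. Against MEF, 4 members were above (background 14.3%) and 5 below (background 7.3%), and per kilobase of exon 10 and 6. Hspb1 was above MEF, at 35.1 RPKM against 14.1, and Hspb6 below, at 0.884 against 8.69. Against the clusters, 18 members were above (background 27.3%) and 11 below (background 12.6%), but 12 and 14 with median-of-ratios scaling, so the balance turned with the scaling. Against ESC replicate 3 alone, the only ESC library with the same value for unmeasured genes as the colonies, 3 were above (background 8.83%) and 15 below (background 9.72%). In that pair the log2 difference was -2.09 for Hspb1, -1.90 for Hsp90aa1, -1.49 for Hsp90ab1, -1.21 for Hspd1 and 1.13 for Hspa5. MEF replicate 3 is the only MEF library with that value for unmeasured genes. Against it the colonies differed by 1.66 for Hsp90aa1, 0.69 for Hspd1, 0.66 for Hspb1, 0.22 for Hsp90ab1 and 0.28 for Hspa5.

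Ratios of 2 genes within a library do not depend on how the library was scaled. They were taken on RPKM per gene span, so they are read between libraries and do not show which gene is higher. Per kilobase of exon, for example, Dnajb1 to Dnaja2 was -1.10 to -0.93 in MEF, opposite in sign to the values below. The log2 ratio of Hspa5 to Hspa8, of the ER Hsp70 to the cytosolic one, was 0.71, 0.55 and -0.01 in MEF, 0.29 and -0.18 in GFP- cells, 1.74 in the clusters, 0.03 in the colonies and -2.07, -2.15 and -2.38 in ESC. The ESC ratios lay below all others with no overlap, and the clusters had the highest. The log2 ratio of inducible to constitutive Hsp90, Hsp90aa1 to Hsp90ab1, was -2.83, -2.73 and -4.08 in MEF, -2.50 and -2.83 in GFP- cells, -2.96 in the clusters, -2.57 in the colonies and -2.32, -2.35 and -2.13 in ESC. It was highest in ESC, by little except against MEF replicate 3. Dnajb1 to Dnaja2 was -1.78 and -0.77 in GFP- cells and 0.99 to 1.17 in MEF, and 0.02 to 1.0 in ESC.

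**Figure D4:**
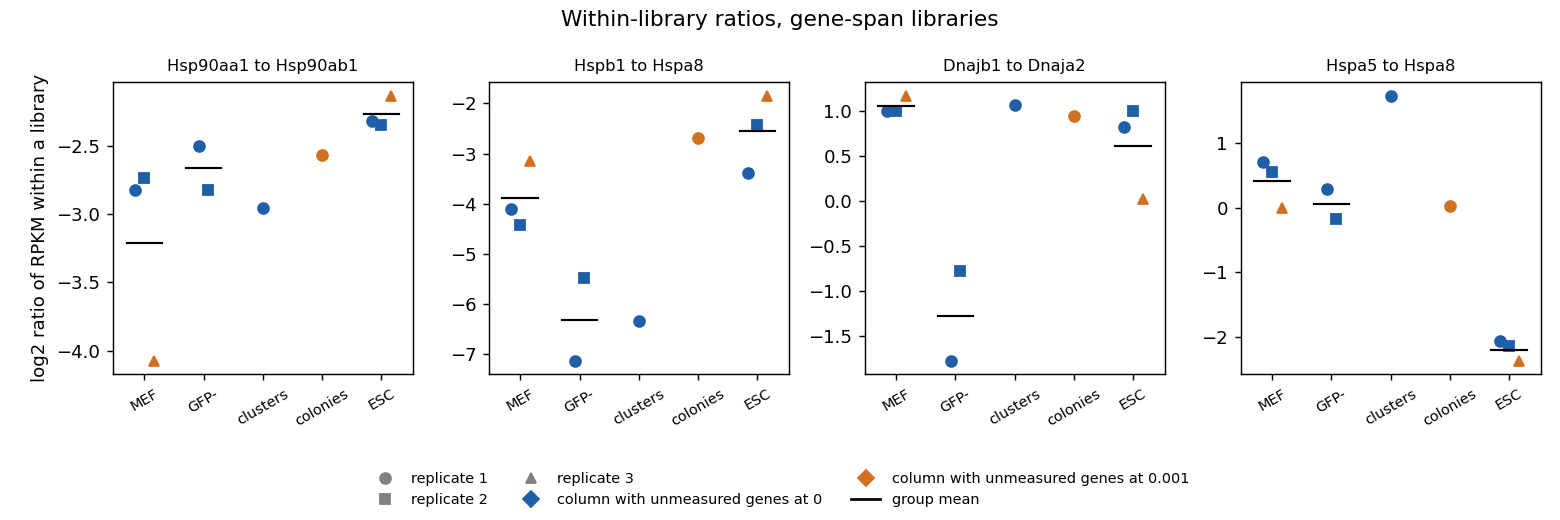
Log2 ratio of RPKM per gene span within a library (axis differs between panels) for 4 pairs of chaperones in the 10 gene-span libraries, with 1 point per library and a line for the group mean. The sign of a ratio depends on the gene lengths and does not show which gene is higher. The Hspa5 to Hspa8 ratio lies near or above 0 in MEF, GFP- cells, clusters and colonies and below -2 in the 3 ESC libraries, and the Dnajb1 to Dnaja2 ratio is lowest in the GFP- libraries.

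Levels were ranked between genes only after dividing by exonic length. The highest mean per kilobase of exon in MEF was that of Hsp90ab1 (493 ± 65.9, SD, n = 3), then Hspa8 (412 ± 24.3) and Hspa5 (350 ± 85.2), neighbours whose spreads touched. In ESC it was Hsp90ab1 (1440 ± 70.0), then Hspa8 (792 ± 316) and Hsp90aa1 (504 ± 21.5), and Hspa5 was not among the first 6. In the clusters Hspa5 (366) ranked second, above Hspa8 (176). Over the 10 gene-span libraries, the genes of the table whose log2(RPKM + 1) followed Hsp90aa1 most closely were Immt (Pearson r = 0.97), F2rl1, Msh6, Hsp90ab1 and Tomm70a (0.94 each), and those nearest to Hspb1 were Th1l (0.98), Nudc, Cdt1, Wdr62 and Tars2 (0.97 to 0.98). These are descriptions over libraries that share groups and depth.

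Other genes of the folding pathway, 46 on a list of factors, co-chaperones and ER stress genes, were tested where present (44). In ESC against MEF 6 rose (Bag4, Tcp1, Fkbp4, Ptges3, Trap1 and Grpel2), beside 7.95% of all genes tested, and 7 fell (Bag5, Cryab, Herpud1, Atf4, Pdia3, Pdia6 and Calr), beside 7.97%. Tcp1 is counted here although ESC replicate 3, at 57.7 RPKM, lay near MEF replicates 1 and 2, at 51.6 and 54.7. Fkbp4, an Hsp90 co-chaperone, went from 8.81, 8.75 and 13.8 RPKM to 30.3, 32.3 and 62.5, and Ptges3 (p23), another, from 6.41, 5.92 and 3.64 to 13.3, 10.4 and 14.8. Cryab, the small heat shock protein alpha-B crystallin, went from 25.6, 26.0 and 18.7 RPKM to 3.10, 1.70 and 1.88. Calr, which folds glycoproteins in the ER, fell from 194, 167 and 183 to 76.2, 81.2 and 105. In GFP- cells against MEF 3 rose (Bag4, Tcp1 and Grpel2), beside 3.53% of all genes tested, and 2 fell (Bag5 and Herpud1), beside 4.09%. In ESC against GFP- cells 4 rose, beside 14.3%, and 3 fell, beside 8.35%. The heat shock factors Hsf1 and Hsf2 were not called in any comparison. For Hsf2 in ESC against GFP- cells the limma adjusted p was 0.0340, but the log2 change of 0.81 was too small for a call. The clusters held 5.06 RPKM of Hsf2, above every other gene-span library (at most 1.46).

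The 13 members not tested were Cct6b, Dnaja4, Dnajb7, Dnajb13, Dnajc1, Dnajc5b, Dnajc5g, Dnajc12, Dnajc28, Hspa1l, Hspa12a, Hspa12b and Hspb2, of which 8 are on the tissue-restricted list. Among the gene-span libraries they passed 1 RPKM only for Hspa12a in the clusters (2.50), Hspa12b in MEF replicate 3 (2.35), Hspb2 in MEF replicate 3 (1.62) and Dnaja4 in GFP- replicate 2 (1.77).

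The CiPSC lines and ESC replicate 4 were compared with each other only, on exonic values. Hsp90ab1 was 857 and 892 RPKM in lines 6 and 11 and 897 in ESC replicate 4, Hsp90aa1 612 and 645 against 507, Hspa8 913 and 944 against 1048, and Hspa5 80.7 and 85.2 against 80.8. Of 53 members at 1 RPKM or more in all 3 libraries, 45 had a CiPSC mean within 1.25 times the ESC value, 22 had both lines above it and 23 both below. Hspb8 was the highest ratio, at 14.7 and 12.6 RPKM against 6.65 (2.05 times), Dnajb5 followed at 2.51 and 2.44 against 1.59, and Dnajb9 was the lowest, at 1.66 and 1.41 against 2.34 (0.656 times). The 2 lines differed from each other by a ratio of 0.849 to 1.18. No member was called (limma, 0 of 65, and 0 at an unadjusted p under 0.05), beside backgrounds of 0.122% of all genes tested called higher, 0.0376% called lower and 0.16% in either direction (17 genes). The interval of the log2 difference was -0.65 to 2.52 for Hspb8 and -1.14 to 1.76 for Hsp90aa1, so the intervals include differences of more than 2-fold. ESC replicate 4 is 1 library with no spread of its own, so these p-values and intervals assume that it varies like the other groups.

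**Figure D5:**
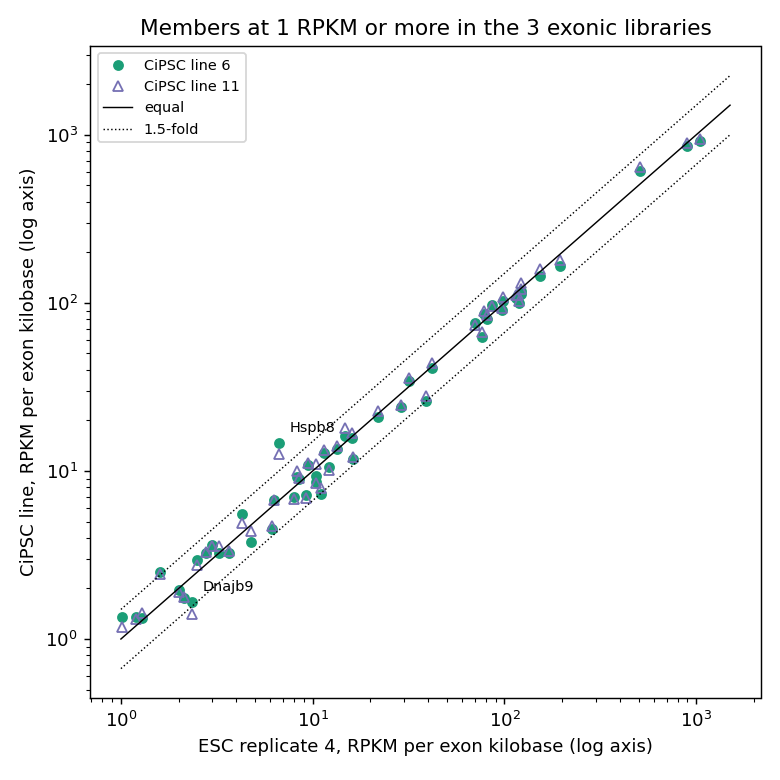
RPKM per kilobase of exon in CiPSC line 6 (filled circles) and line 11 (open triangles) against ESC replicate 4 (both axes log) for the 53 members at 1 RPKM or more in all 3 libraries, with a line for equal values and dotted lines for a 1.5-fold difference. Most points lie within the dotted lines, with Hspb8 and Dnajb5 above the upper line and Dnajb9 just below the lower one on average over the 2 lines.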

How the data were processed

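The authors deposited 1 table of RPKM values for the 13 libraries, per the file headers. The submitters' processing notes name TopHat 1.3.0 and genome mm9. How reads were counted, on which annotation and with which lengths is not given in the sources used here. Of 15184 rows, 8 that shared the symbol Ptprf were left out. No column was left unused (0). Gene lengths from GRCm38, used for lengths only, were available for 90.1% of genes and for all 78 members. With them, values in 10 libraries were taken as per kilobase of gene span, since their low values fell on whole multiples of 1 step for 82.1 to 84.0% of values (tolerance 0.05 steps). The other 3 showed such steps with neither length. They were taken as per kilobase of exon, an assumption, because RPKM times gene span summed to 2.749 to 2.789 reads per sequenced read, and RPKM times exonic length to 0.4785 to 0.4813. The steps gave estimated depths of 8.91 to 17.7 M reads, which carry counting error only.

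The scale of analysis was log2(RPKM + 1), so fold changes of low genes are understated. R 4.3.3 and limma 3.58.1 fitted all 13 libraries with 1 coefficient per group and a length-scale term, a variance trend, and Benjamini-Hochberg adjustment over the 10647 genes that reached 1 RPKM in 2 or more libraries (6 residual degrees of freedom, prior 2.58). The fit was also run on simulated data with independent normal noise and no split between column sets, unlike these data. No result above rests on that run. A call needed both an adjusted p below 0.05 and a log2 change of 1 or more in size. Alternatives covered pseudocount, filter, scaling, length scale, replicate block and leaving out each library.

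Named members were a fixed list of main chaperones, every member called, and for single libraries those with the largest differences at 5 RPKM or more in the higher. The members, role lists and tests were chosen with earlier results of these data known.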

Additional observations from a re-analysis of the deposited data

How the results depend on the processing

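Members called kept their direction under every alternative run, and 2 of 13 higher and 1 of 5 lower members in ESC against MEF, 1 of 2 and 0 of 3 in GFP- cells against MEF, and 7 of 14 and 2 of 8 in ESC against GFP- cells stayed called in all of them. In ESC against MEF, leaving out 1 library gave 7 to 14 higher and 2 to 6 lower, libraries with unmeasured genes at 0 gave 5 higher, median-of-ratios scaling 7 higher, the fit without a length-scale term 7 and 2, and the 10 gene-span libraries alone 3 lower. In GFP- cells against MEF, leaving out 1 library gave 1 to 5 higher and 0 to 5 lower, libraries with unmeasured genes at 0 gave 1 and 0, no length-scale term 1 and 1, a pseudocount of 0.1 gave 4 higher, and the gene-span libraries alone 1 lower. In ESC against GFP- cells, leaving out 1 library gave 11 to 15 higher and 4 to 9 lower, and no length-scale term 9 and 4. The cause was not tested, except that the settings which leave out libraries rest on fewer of them.

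Counts past a log2 difference of 1 for single libraries rose with a pseudocount of 0.1. Clusters against GFP- cells gave 10 above and 21 below, clusters against MEF 27 below, colonies against ESC 13 and 13, colonies against MEF 11 and 8, and colonies against clusters 29 above. Per kilobase of exon, clusters against GFP- cells gave 10 above, clusters against MEF 25 below, colonies against ESC 10 and 11, and colonies against MEF 10 above. Leaving out 1 MEF library gave 3 to 6 members below MEF in the colonies, with 3 without MEF replicate 1. An alternative chosen after seeing the data, colonies against ESC replicate 3 only, gave 3 above and 15 below. The median log2 change over all genes shifted from 0.254 to 0.467 in ESC against GFP- cells, and from -0.128 to -0.300 in GFP- cells against MEF, per kilobase of exon.

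The replicate block was not used for the reported values because the numbers do not pair the libraries: deviations of replicates 1 and 2 correlated between groups at -0.0417, -0.0673 and 0.0826. With the replicate block, ESC against MEF gave 10 higher and 4 lower, GFP- cells against MEF 2 and 3, and ESC against GFP- cells 12 and 8. The calls not made with the block were those of Cct3, Cct4, Cct8 and Dnajb4 in ESC against MEF and of Cct7 and Dnajb5 in ESC against GFP- cells. Depth limits low members such as Dnajc4 and Hspb6, with under 40 estimated reads in GFP- cells.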
